A study of Mus musculus with 8 samples.

Results

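The genes described here build the machinery by which B cells present peptides on MHC class II molecules. The members are 10 genes, chosen by name: H2-Aa, H2-Ab1, H2-Eb1, Cd74, H2-DMa, H2-DMb1, H2-DMb2, H2-Oa, H2-Ob and Ciita. On the array 11 of 12422 probe sets, which are groups of short oligonucleotides that together measure 1 transcript, carry exactly 1 of these symbols, and H2-DMa has 2 of them. All 11 were bright enough to be among the 7453 probe sets tested. A further probe set is listed for both H2-DMb2 and H2-DMb1 and is kept apart, because it cannot be given to either gene.

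RNA came from sorted mouse follicular (FO) B cells, the recirculating B cells of lymphoid follicles, on 8 single-colour arrays in 4 groups of 2. The groups were IgMG cells stimulated with HEL, unstimulated IgMG cells, IgM cells stimulated with HEL and unstimulated IgM cells. In all groups the B cell receptor recognised hen egg lysozyme (HEL). IgMG is a chimera of IgM in which the extracellular spacer, the transmembrane part and the cytoplasmic part come from IgG1, and IgM cells carry the unaltered receptor. Each IgMG array pooled 5 to 8 mice and each IgM array 2 or 4, in 1 to 3 sorts, so receptor and pool size cannot be told apart. The sources used here do not give strain, age, sex, the dose of HEL or the length of stimulation.

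Class II molecules are pairs of an alpha and a beta chain that load peptides in endosomes and show them to CD4 T cells. The invariant chain, Cd74, guards the groove until its last fragment, CLIP, is exchanged for peptide by the editor H2-DM, a pair of H2-DMa with a beta chain from H2-DMb1 or H2-DMb2. H2-O, a pair of H2-Oa and H2-Ob made mainly in B cells, binds H2-DM and holds back its action. Ciita is the coactivator that sets transcription of these genes, through a factor complex bound to paired promoter elements called the X box and the Y box.

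The arrays carried the signals of B cells. Cd79a lay between 5637 and 7758 on all arrays, and Fcer2a, a marker of follicular B cells, between 1099 and 3434. Cr2, the dimmest B cell marker of the list on the array, lay between 45.6 and 112.6. Hba-a1, a marker of erythroid cells, was brighter than Cd79a on every array, at 9595 to 16616. The second unstimulated IgMG array stood apart in markers of other cells. Its summed signal over 14 of 15 listed markers of monocytes, macrophages and neutrophils was 15301, against 1571 to 6245 on the other arrays. Over 7 of 10 NK cell markers its sum was 2236, against 227 to 574. Dendritic cells matter here because they are rich in class II. Of 7 of 10 dendritic cell markers on the array, Itgax had 204.1 on the second unstimulated IgMG array, against 23.3 to 102 on the others, and Batf3 had 93.6, against 27.5 to 55.3. The other 5 were within their range on the other arrays or, for Ccr9, below it, as was the sum of 761.5, against 493 to 818, and no marker was at 0. Over 6 of 10 erythroid markers the sum ran from 12749 to 20183 and was highest on the first HEL-stimulated IgMG array. Cd74, H2-Aa and H2-Eb1 were also highest there. Of that sum Hba-a1 gave 16616, and the other erythroid markers were not highest there. Of the myeloid list, Csf1r, Cd14, Adgre1, C1qa and C1qb were highest on that array and the others were not. C1qa had 550.3 there, against 66.5 to 352.8 on the other arrays, and Cd14 had 1005.2, against 72 to 211.7. The part of these signals in the values of Cd74, H2-Aa and H2-Eb1 was not tested. The second HEL-stimulated IgM array had a Gapdh 5'/3' signal ratio of 0.755, against 0.140 to 0.395 on the other arrays. Over 9 of 10 B cell markers the sum was 21689 to 26081 in IgMG cells with HEL, against 25419 to 25452 without, and 19841 to 21765 in IgM cells with HEL, against 25901 to 28056 without. In IgM cells it was thus lower on both HEL arrays, as all editors and modulators were. The share of all tested probe sets that were lower on both was not counted. The markers did not move together. In IgM cells Cd79b had 2877 and 3759 with HEL, against 6850 and 6443 without, while Cd79a had 6572 and 7598, against 5637 and 6863, which overlap. The part of the B cell sum in the values of the editors and modulators was not tested. In pooled RNA, fewer cells of a type and less RNA per cell cannot be told apart.

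With HEL, averaged over both receptors, the editor chain H2-DMa and the modulator chain H2-Oa fell to 0.661 and 0.655 times the unstimulated level, and Cd74 rose. The other editors, modulators and Ciita had negative changes and the classical chains positive ones, and none of these passed the test. The brighter H2-DMa probe set had a log2 change of -0.60 ± 0.09 (SE) with an adjusted p = 0.00313 in limma. H2-Oa had -0.61 ± 0.12 with an adjusted p = 0.00756, and Cd74 0.34 ± 0.10 with an adjusted p = 0.0449. The dimmer H2-DMa probe set had -0.35 ± 0.15 and did not pass (adjusted p = 0.125 in limma). So 2 of 11 member probe sets fell and 1 rose, while of all tested probe sets 11% fell, 9.18% rose and 20.2% passed in either direction. The members' share is not far from that of all genes. Without adjustment 6 of 11 members had a limma p under 0.05, against 33.5% of all. The median log2 change was -0.31 for the members and -0.04 for all tested probe sets. This average over receptors was added after the values were seen, and log2 changes are of signal + 16.

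**Figure D1:**
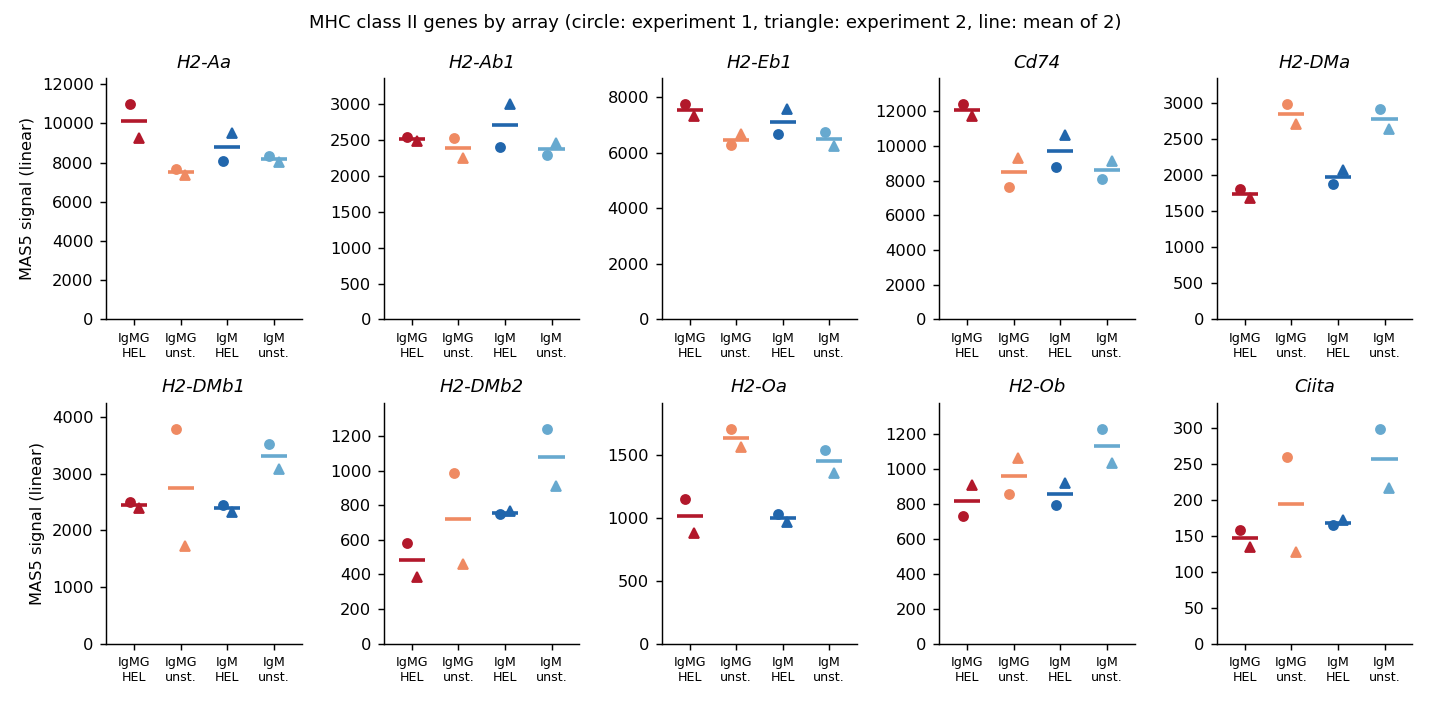
MAS5 signal (linear, axis from 0) of the brightest probe set of each class II gene on the 8 arrays, with 2 arrays per group; circles are experiment 1, triangles experiment 2, lines the mean of 2, and unst. means unstimulated. H2-DMa and H2-Oa lie lower on all 4 HEL arrays than on all 4 unstimulated arrays, and for H2-DMb1, H2-DMb2 and Ciita the 2 unstimulated IgMG arrays lie far apart.

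H2-Aa, the alpha chain of the class II molecule I-A, had signals of 10978 and 9264 in IgMG cells with HEL, against 7685 and 7385 in unstimulated IgMG cells. The groups did not overlap, and the log2 change of 0.42 ± 0.13 (SE) had an adjusted p = 0.0991 in limma. In IgM cells H2-Aa had 8094 and 9520 with HEL, against 8316 and 8054 without, which overlap, and the log2 change was 0.10 ± 0.13 (adjusted p = 0.657 in limma).

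H2-Ab1, the beta chain that pairs with H2-Aa, had 2545 and 2486 in IgMG cells with HEL, against 2525 and 2258 without, a log2 change of 0.07 ± 0.15 (95% interval -0.26 to 0.41). In IgM cells it had 2412 and 3002 with HEL, against 2295 and 2459 without, a log2 change of 0.18 ± 0.15 (95% interval -0.15 to 0.51). Both pairs of groups overlap, and neither change passed the threshold, an adjusted p of 0.05 (adjusted p = 0.820 and 0.464 in limma).

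H2-Eb1, the beta chain of the other class II molecule, I-E, had 7744 and 7329 in IgMG cells with HEL, against 6287 and 6657 without. These groups did not overlap, and the log2 change of 0.22 ± 0.12 had an adjusted p = 0.323 in limma. In IgM cells it had 6666 and 7575 with HEL, against 6760.4 and 6239.5 without, which overlap, with a log2 change of 0.13 ± 0.12.

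Cd74, the invariant chain, rose when both receptors were averaged. It had 12417 and 11742 in IgMG cells with HEL, against 7658 and 9329.8 in unstimulated IgMG cells, so the groups did not overlap. In IgM cells it had 8818 and 10666 with HEL, against 8105 and 9160.0 without, and there the groups overlapped. The log2 change was 0.51 ± 0.14 in IgMG cells (adjusted p = 0.0767 in limma) and 0.17 ± 0.14 in IgM cells (adjusted p = 0.482). The mean rise over both receptors kept its call in 9 of 18 alternatives. It was 0.10 with quantile normalization (adjusted p = 0.340), and it lost its call without either unstimulated IgM array, without either HEL-stimulated IgMG array, without the second HEL-stimulated IgM array or without the first unstimulated IgMG array (adjusted p of 0.0727 to 0.155).

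H2-DMa, the alpha chain of the peptide editor, fell in both kinds of cell. It had signals of 1802 and 1680.2 in IgMG cells with HEL, against 2981 and 2711 in unstimulated IgMG cells, and 1874 and 2075 in IgM cells with HEL, against 2915 and 2641 in unstimulated IgM cells. Every HEL array lay below every unstimulated array. The log2 change was -0.70 ± 0.13 (SE) in IgMG cells, with an adjusted p = 0.0220 in limma, and -0.49 ± 0.13 in IgM cells, with an adjusted p = 0.0429. In IgM cells the call held in 6 of 19 alternatives and was lost without any 1 IgM array or HEL-stimulated IgMG array (adjusted p of 0.0769 to 0.217). In IgMG cells it held in 14 of 19 and was lost without either HEL-stimulated IgMG array or the first unstimulated one (0.0717 to 0.185), while the average over both receptors passed in 18 of 18. The dimmer H2-DMa probe set had 455 and 437 in IgMG cells with HEL, against 551 and 544 without, and 507 and 336 in IgM cells with HEL, against 606 and 513 without. It had the same sign in both kinds of cell and did not pass (adjusted p = 0.465 in IgMG and 0.219 in IgM cells in limma). The average over both receptors of this dimmer probe set passed in 1 of 18 alternatives.

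H2-Oa, the alpha chain of the modulator, fell in IgMG cells. It had 1149.5 and 879 in IgMG cells with HEL, against 1706 and 1558 in unstimulated IgMG cells, and 1026.5 and 965 in IgM cells with HEL, against 1538 and 1357 in unstimulated IgM cells. As for H2-DMa, every HEL array lay below every unstimulated array. The log2 change was -0.69 ± 0.17 in IgMG cells, with an adjusted p = 0.0491 in limma, and -0.53 ± 0.17 in IgM cells, with an adjusted p = 0.0658. The IgMG call was near the threshold, held in 3 of 19 alternatives and was lost with any 1 array left out (adjusted p of 0.0635 to 0.308), while the average over both receptors passed in 18 of 18.

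H2-Ob, the partner of H2-Oa, showed smaller differences. It had 730.5 and 908 in IgMG cells with HEL, against 857 and 1065 without, which overlap, and 797 and 924 in IgM cells with HEL, against 1233.5 and 1035 without, which do not. The log2 changes of -0.23 ± 0.18 and -0.39 ± 0.18 did not pass (adjusted p = 0.531 and 0.204 in limma).

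The beta chains of the editor and the transactivator were set apart by 1 array. H2-DMb1 had 2494 and 2391.5 in IgMG cells with HEL, against 3795 and 1715.5 in unstimulated IgMG cells, so the unstimulated arrays lay above and below both HEL arrays. In IgM cells it had 2452 and 2324 with HEL, against 3529 and 3090.1 without, with no overlap. The log2 changes were -0.06 ± 0.30 in IgMG and -0.47 ± 0.30 in IgM cells (adjusted p = 0.933 and 0.347 in limma).

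H2-DMb2, a near copy of H2-DMb1, had 582 and 388 in IgMG cells with HEL, against 983 and 461 without, and 747 and 768 in IgM cells with HEL, against 1243 and 911 without. Its log2 change was -0.49 ± 0.33 in IgMG and -0.48 ± 0.33 in IgM cells, and neither passed (adjusted p = 0.439 and 0.389 in limma). The probe set listed for both genes had 1396 and 1263 in IgMG cells with HEL, against 2266 and 972 without, and 1216 and 897.5 in IgM cells with HEL, against 1967 and 1738 without. It showed the same low second unstimulated IgMG array. It is annotated to the same transcript record as the H2-DMb1 probe set, and near copies can share signal, so the values of these 3 probe sets are not independent.

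Ciita had 158 and 134 in IgMG cells with HEL, against 259.6 and 128 in unstimulated IgMG cells, and 165 and 171 in IgM cells with HEL, against 298.5 and 215.5 in unstimulated IgM cells. Both HEL-stimulated IgM arrays lay below both unstimulated ones, while the IgMG groups overlapped through the second unstimulated array. The log2 changes of -0.30 ± 0.30 and -0.55 ± 0.30 did not pass (adjusted p = 0.615 and 0.262 in limma).

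**Figure D2:**
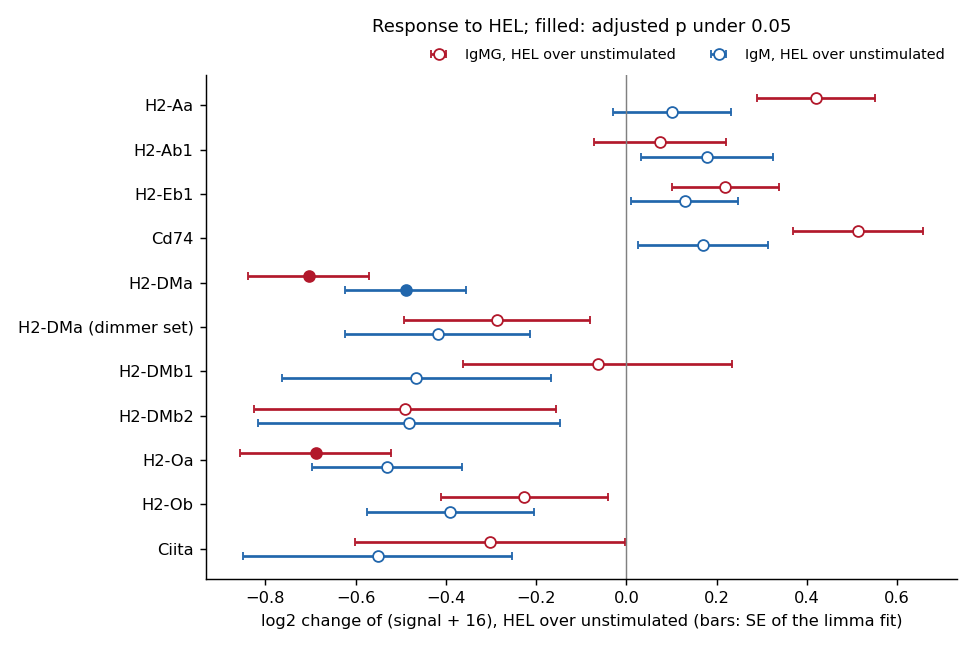
Log2 change of signal + 16, HEL over unstimulated, for the 11 member probe sets in IgMG cells (red) and IgM cells (blue), with bars for the standard error of the limma fit and filled points for an adjusted p under 0.05. H2-DMa is filled for both receptors and H2-Oa for IgMG; the classical chains and Cd74 lie right of 0 and all editors, modulators and Ciita left of it.

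In each single comparison few members passed. In IgMG cells 2 of 11 member probe sets fell and 0 rose, while of all tested probe sets 2.29% fell, 3.1% rose and 5.39% passed in either direction. In IgM cells 1 of 11 fell and 0 rose, while of all 7.27% fell, 6.7% rose and 14% passed in either direction. Without adjustment 4 of 11 members in IgMG cells had a limma p under 0.05, against 22.3% of all, and 2 of 11 in IgM cells, against 28.6%. The member median was -0.23 in IgMG cells, against -0.05 for all probe sets, and -0.42 in IgM cells, against -0.02.

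The gap between the roles was also seen within arrays, where a scaling factor common to the array cancels. The mean log2 value of H2-DMa, H2-DMb1, H2-DMb2, H2-Oa and H2-Ob less that of H2-Aa, H2-Ab1, H2-Eb1 and Cd74 was set to average 0 over the 4 unstimulated arrays. It stood at -0.80 and -0.85 in IgMG cells with HEL, against 0.15 and -0.32 in unstimulated IgMG cells. In IgM cells it stood at -0.43 and -0.63 with HEL, against 0.22 and -0.05 without. All 4 HEL arrays lay below all 4 unstimulated arrays, and the second unstimulated IgMG array came nearest to them. The grouping follows the known roles and the values were seen when it was made, so no test is given.

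**Figure D3:**
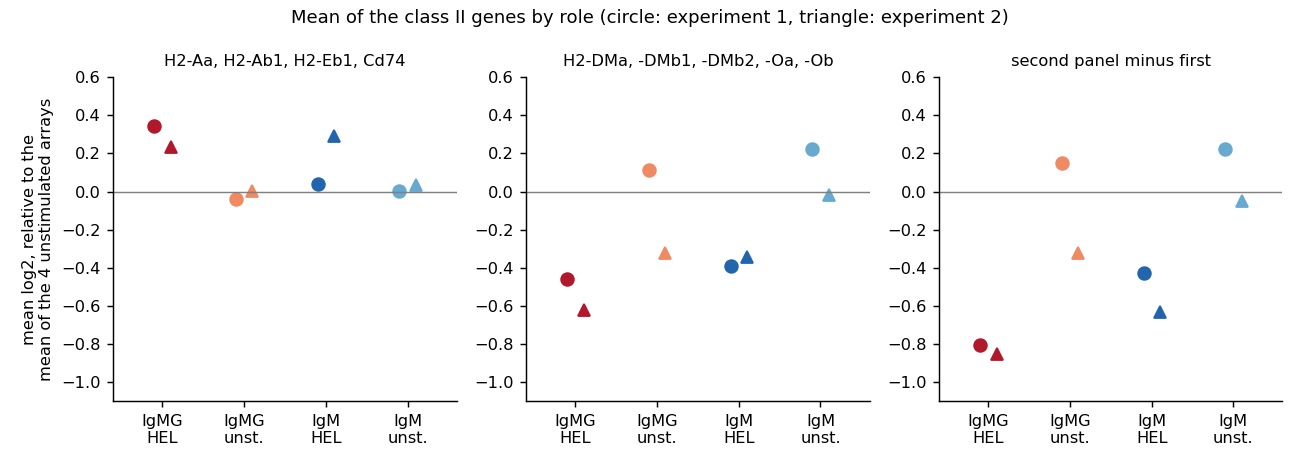
Mean log2 of signal + 16 by array for the classical chains with Cd74 (left), for the editors and modulators (middle) and for their difference (right), each relative to the mean of the 4 unstimulated arrays; circles are experiment 1, triangles experiment 2, and unst. means unstimulated. The difference lies between -0.43 and -0.85 on HEL arrays and between -0.32 and 0.22 on unstimulated arrays.

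The promoters of these genes are shown because the X and Y boxes are the elements through which Ciita acts. Of the 10 genes 7 had a promoter of 300 bases in the RefSeq table (GRCm38.p6, from 250 bases before the gene start to 50 after); H2-Ab1, Cd74 and Ciita are named only. Searched on both strands, a Y box core (GATTGG) was found for all 7, for H2-DMa at 1 of its 2 listed starts, against 16.1% of 32851 promoters. An X box core (AGNAAC) with a Y box core 20 to 50 bases further on the same strand was found for 4 of 7, namely H2-Eb1, H2-DMb1, H2-Oa and H2-Ob, against 0.578% of all promoters; the X core alone is in 48.1%. In these 4 the starts of the cores lay 30 to 33 bases apart, and the Y core began 44 to 62 bases before the gene start. Each line gives 72 bases on the gene's own strand around the Y core, with the cores in capitals. H2-DMa, with its 2 listed starts, was left out of these lines and of the comparison of windows below.

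H2-Eb1, chr17:34305751-34305822, plus strand: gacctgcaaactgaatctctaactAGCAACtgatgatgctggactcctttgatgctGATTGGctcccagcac
H2-DMb1, chr17:34153073-34153144, plus strand: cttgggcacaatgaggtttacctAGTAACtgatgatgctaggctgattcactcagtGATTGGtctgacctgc
H2-DMb2, chr17:34145102-34145173, plus strand: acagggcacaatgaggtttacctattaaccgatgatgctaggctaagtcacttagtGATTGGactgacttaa
H2-Oa, chr17:34092279-34092350, plus strand: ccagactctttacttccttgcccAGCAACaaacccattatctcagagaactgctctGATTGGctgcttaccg
H2-Ob, chr17:34238791-34238862, plus strand: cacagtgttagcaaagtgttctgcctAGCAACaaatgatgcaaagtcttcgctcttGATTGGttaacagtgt
H2-Aa, chr17:34287857-34287928, minus strand: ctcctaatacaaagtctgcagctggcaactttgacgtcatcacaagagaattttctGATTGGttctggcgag

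H2-DMb1 and H2-DMb2 were identical at 60 of these 72 bases (83.3%), while the other pairs of windows matched at 26.4% to 41.7% of positions. The windows were aligned at the Y core, so the bases of that core match in every pair by construction. H2-Oa, which was lower on every HEL array, and H2-Eb1, which was not, both hold the pair of cores. The part of the pair in the responses was not tested. For H2-Aa, H2-DMb2 and H2-DMa the pair was not found, which says only that those letters are not so placed in the window.

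In the gene table, 8 members lie in a stretch of 13 protein-coding genes on chromosome 17, in the order H2-Oa, H2-DMa, H2-DMb2, H2-DMb1, H2-Ob, H2-Ab1, H2-Aa and H2-Eb1. Between H2-DMb1 and H2-Ob stand Psmb9, Tap1, Psmb8 and Tap2, which serve MHC class I: they encode proteasome subunits of the immunoproteasome and both subunits of the peptide transporter. All 4 fell in the average over both receptors. The log2 changes were -0.82 ± 0.13 for Psmb9, -0.56 ± 0.11 for Tap1, -0.52 ± 0.10 for Psmb8 and -0.58 ± 0.13 for Tap2 (adjusted p = 0.00303, 0.00838, 0.00603 and 0.0150 in limma). Taken by receptor, Psmb9 passed in both kinds of cell, Tap1 only in IgM cells, Psmb8 only in IgMG cells and Tap2 in neither. The last of the 5 other genes, Brd2 next to H2-Oa, had -0.23 ± 0.12 (adjusted p = 0.224). Along this stretch the genes from H2-Oa to H2-Ob all had negative changes, and H2-Ab1, H2-Aa and H2-Eb1 at its end had positive ones. The stretch was looked up after the values were seen.

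Other genes of presentation were counted from lists chosen for the pathway. Of 13 tested class I presentation genes 5 fell and 0 rose in the average over both receptors, where 11% of all probe sets fell and 9.18% rose. They were the 4 above and Psmb10, another immunoproteasome subunit, at -0.81 ± 0.20 (adjusted p = 0.0199 in limma). Psmb10 passed in neither kind of cell alone (adjusted p = 0.134 in IgM and 0.0924 in IgMG cells in limma). It had 815.5 on the second HEL-stimulated IgM array, against 817.8 on the second unstimulated IgM array. H2-K1, a class I heavy chain, had a change of 0.24 ± 0.09 and B2m, its light chain, of 0.13 ± 0.11, and neither passed (adjusted p = 0.106 and 0.457 in limma). Of 10 proteases and helpers of class II loading 2 fell and 0 rose, beside the same 11% and 9.18% of all: Ifi30, the thiol reductase GILT of endosomes, at -0.77 ± 0.18 and Cst3, a cathepsin inhibitor, at -0.53 ± 0.15 (adjusted p = 0.0192 and 0.0347 in limma). Ifi30 passed only in IgM cells and Cst3 in neither kind of cell alone. Ifi30 had 3668.4 on the first unstimulated IgM array, against 1195.9 to 1904 on the others, and was lower on every HEL array than on every unstimulated one. Cst3 had 2039.6 on the second unstimulated IgMG array, against 896.5 to 1535.9 on the others, and its HEL and unstimulated arrays overlapped. Ctss, the protease that trims the invariant chain in B cells, had 0.01 ± 0.10 (adjusted p = 0.962). The list medians were -0.16 for class I genes and -0.10 for proteases and helpers, against -0.04 for all probe sets.

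Of 13 tested regulators of class II genes 2 rose and 3 fell in the average over both receptors, beside 9.18% and 11% of all. Their median was -0.19, against -0.04 for all. Irf4 and Irf8, interferon regulatory factors of B cells, rose by 3.22 ± 0.12 and 1.03 ± 0.10 on the log2 scale (adjusted p = 1.62e-06 and 0.000199 in limma). Pax5, the factor that keeps B cell identity, fell by 0.86 ± 0.16 on the log2 scale, with an adjusted p = 0.00597 in limma. Rfxank, a subunit of the RFX complex at the X box, had a change of -0.61 ± 0.14 (adjusted p = 0.0155), and the acetyltransferase gene Kat2b of -0.79 ± 0.19 (adjusted p = 0.0186). Irf4 and Irf8 also passed in each kind of cell alone, Pax5 and Kat2b only in IgM cells and Rfxank in neither. Nfyb and Nfyc, subunits of the NF-Y factor at the Y box, fell in IgM cells with -0.74 ± 0.21 and -0.78 ± 0.19 (adjusted p = 0.0494 and 0.0258) and had 0.04 ± 0.21 and -0.01 ± 0.19 in IgMG cells. The difference between the receptors did not pass for either gene (adjusted p = 0.465 and 0.437 in limma). Nfya, the other NF-Y subunit, went the other way in IgM cells with 0.53 ± 0.17 and did not pass (adjusted p = 0.0739 in limma). In IgMG cells Nfya had 0.10 ± 0.17 (adjusted p = 0.790 in limma). No gene of the list of class II turnover had a probe set with a single matching symbol.

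Whether the receptors responded differently was tested directly. In the difference of the HEL responses, IgMG minus IgM, 0 of 11 members passed, as did 0% of all tested probe sets, and 0 of 11 members had an unadjusted p under 0.05 in limma, against 10.1% of all. The largest positive values were 0.40 for H2-DMb1, with a 95% interval of -0.56 to 1.36, 0.34 for Cd74 (-0.12 to 0.81) and 0.32 for H2-Aa (-0.10 to 0.74). That of H2-DMb1 rested on 1 array: it was 0.97 without the first unstimulated IgMG array and -0.17 without the second. For H2-DMa the difference was -0.21 (-0.64 to 0.22) and for H2-Oa -0.16 (-0.69 to 0.38). Intervals of this width leave room for differences of either sign in most members.

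IgMG and IgM cells were also compared at the same state. Without HEL 0 of 11 members passed, against 0% of all probe sets, and 0 had an unadjusted p under 0.05 in limma, against 4.62% of all. H2-Ab1, H2-Eb1, Cd74 and the brighter H2-DMa probe set had log2 differences of 0.01, -0.01, -0.03 and 0.03. That of Cd74 was 0.11 without the first unstimulated IgMG array and -0.17 without the second. H2-DMb2 had the largest difference, -0.65 ± 0.33, followed by Ciita at -0.44 ± 0.30 and H2-DMb1 at -0.37 ± 0.30, each with an adjusted p = 0.995.

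With HEL 0 of 11 members passed either, against 0.0134% of all, and 0 had an unadjusted p under 0.05 in limma, against 13.9% of all. Cd74 was higher on both IgMG arrays, 12417 and 11742, than on both IgM arrays, 8818 and 10666, a difference of 0.32 ± 0.14 (adjusted p = 0.373). H2-DMb2 was lower on both IgMG arrays, 582 and 388, than on both IgM arrays, 747 and 768, a difference of -0.65 ± 0.33 (adjusted p = 0.423). The probe set shared with H2-DMb1 went the other way, with 1396 and 1263 against 1216 and 897.5 and a difference of 0.34 ± 0.33. The sums of myeloid markers were 6115 to 6245 in IgMG cells with HEL, against 1571 to 4402 in IgM cells with HEL, and those of NK cell markers 498.5 to 574, against 247 to 340.4, and their part in these differences was not tested.

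The second unstimulated IgMG array decided the values of 3 genes. Without it, the IgMG response was -0.63 for H2-DMb1, -1.02 for H2-DMb2 and -0.77 for Ciita, and without the first unstimulated IgMG array it was 0.51, 0.04 and 0.17. Their difference between unstimulated IgMG and IgM cells was -0.94, -1.18 and -0.91 without the first array, against 0.20, -0.11 and 0.03 without the second. On the same array H2-DMa, with 2711, and H2-Oa, with 1558, were not low. H2-Ob was higher there, with 1065, than on the first array, with 857. That array carries the high sums of myeloid and NK cell markers and the high Itgax and Batf3 given above, and their part in these values was not tested. Averaged over both receptors without it, 6 of 11 members passed in limma, against 21.4% of all tested probe sets: Cd74 rose (adjusted p = 0.0214), and H2-DMa, H2-Oa, H2-DMb1, H2-DMb2 and Ciita fell (adjusted p = 0.00401, 0.0103, 0.00658, 0.0163 and 0.0206).

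**Figure D4:**
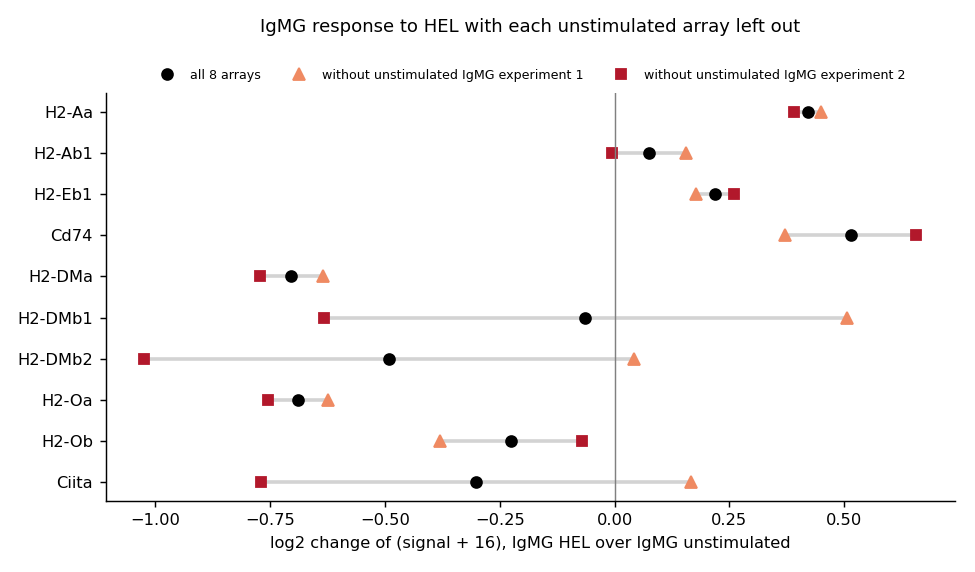
Log2 change of signal + 16, IgMG HEL over IgMG unstimulated, for the brightest probe set of each gene with all 8 arrays (black), without the first (triangle) and without the second (square) unstimulated IgMG array. H2-DMa and H2-Oa stay between -0.77 and -0.62, while H2-DMb1, H2-DMb2 and Ciita change sign between the settings.

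Among 6677 other named and tested probe sets, the profile of Slfn2 over the 8 arrays was most like the mean profile of the members, with a Pearson r of 0.97, and Slfn2 is a Schlafen gene known for its part in lymphocyte quiescence. It was followed by Ptp4a3, a phosphatase gene (0.96), R3hcc1 (0.96), Esyt1 (0.95) and Shkbp1 (0.95). The mean profile did not split the arrays by HEL: the second unstimulated IgMG array stood at -0.14, below 3 of the 4 HEL arrays. The profile averages members with positive and members with negative HEL changes, so likeness to it is not likeness to each member. The values describe a shared order of 8 arrays and are given with no test.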

How the data were processed

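RNA was measured on 8 arrays of 1 colour, grouped by title. The authors deposited 1 linear intensity per probe set, made with MAS5 per the submitters' processing notes; the sources used here give no further settings. The trimmed means (2% cut at each end) of 149 to 150.0 on all arrays show a common scaling. Detection calls were not used here, and the small number of arrays limits precision.

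Of 12488 probe sets 66 controls were left out. The brightest 60% by mean log2(signal + 16), 7453 of 12422, were tested. Symbols came from the 2016 platform annotation (10833 probe sets with 1 symbol, 396 with several, 1193 with none); 10817 gene identifiers matched RefSeq and 0 symbols changed. Named were all member probe sets, the brightest giving a gene's value, up to 5 genes past the threshold per list, and listed genes beside them. Nfya, Nfyb, Nfyc, H2-K1, B2m, Ctss and Brd2 were chosen after their values were seen, as were Itgax, Batf3, Ccr9, Cd79a, Fcer2a and Cr2. So were Csf1r, Cd14, Adgre1, C1qa, C1qb, Hba-a1 and Cd79b. Two-sided tests used limma 3.58.1 in R 4.3.3: a mean for each of the 4 groups, empirical Bayes with trend, and Benjamini-Hochberg adjustment over all tested probe sets. With 4 residual and 4.87 prior degrees of freedom the fit shares its spread; permuting 2 against 2 arrays exactly gives at best p = 0.333. P-values measure the spread between pools of mice. The scripts were tested on simulated data. Alternatives covered offset, scaling, filter, trend, arrays fitted, replicate block, Gapdh covariate and arrays left out. Members and lists were chosen with earlier results of these data known. Figures used matplotlib 3.10.9 in Python 3.11.15.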

Additional observations from a re-analysis of the deposited data

How the results depend on the processing

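The counts of class II probe sets past an adjusted p of 0.05 in limma rest on values near the threshold. For HEL in IgM cells the count of 1 became 0 under median centring of each array, when dim probe sets were kept in, without the trend, when fitted on its own 4 arrays, with the replicate block, with Gapdh 5'/3' as a covariate, and without both arrays that stand apart. It ranged from 0 to 2 with each array left out in turn. For HEL in IgMG cells the count of 2 became 1 with an offset of 1, with median centring, with dim probe sets kept in and with the replicate block, and 0 without the trend or when fitted on its own 4 arrays. It ranged from 0 to 1 with each array left out and was 3 without both arrays that stand apart, when H2-DMa, Cd74 and H2-DMb1 passed and 7.19% of all probe sets did. Averaged over both receptors the count of 3 became 6 without both arrays that stand apart (19% of all probe sets), and 2 to 6 with each array left out. The count of 2 in IgM cells came without either unstimulated IgMG array, when H2-DMb1 also passed, and the count of 6 over both receptors without the second of them. The calls lost with 1 array left out come with fewer arrays in the fit; the cause was not tested for the others. Over all probe sets, leaving out 1 array gave 341 to 1278 calls for IgM, against 1041 with all arrays, 58 to 368 for IgMG, against 402, and 842 to 1595 for their average, against 1505. The 3 receptor comparisons kept a count of 0 members under every alternative run. No call turned its sign. H2-DMa and H2-Oa stayed negative for HEL in both kinds of cell under all alternatives run. The range was -0.82 to -0.42 for the brighter H2-DMa probe set and -0.88 to -0.44 for H2-Oa. The dimmer H2-DMa probe set came as near to 0 as -0.13 in IgM cells. No sign of pairing by experiment number was seen: the differences between experiments correlated at -0.16 to 0.02 across groups. So few arrays cannot exclude shared days or sorts, so whether the replicate block joins paired arrays is not known. A crossed pairing of the unstimulated groups, added after seeing the data, gave 0 calls among members and 0 over all probe sets. Dim probe sets are noisiest, and no member was near the lower limit of 23.2.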
